A study of Mus musculus with 2 samples.

Results

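The genes described here copy DNA in S phase. They are 57 mouse genes of origin recognition, helicase loading, origin firing, DNA synthesis, nucleotide supply and the chromatin steps behind the fork, out of 55536 GENCODE genes measured. They were given as a list of names and found by GENCODE M21 symbol, a rule that uses no measured value. All 57 were present in both deposited gene tables of both libraries, and all 57 are annotated as protein coding.

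The series profiled poly(A)-selected RNA of mouse regulatory T cells that had been through inflammation, named inflammation-experienced in the labels. Regulatory T cells are the Foxp3-dependent CD4 subset that holds immune responses in check. The mice were male and 7 weeks old, and the primary cells derived from activated regulatory T cells. From 1 biological replicate came 2 technical replicates, library 1 and library 2 below. The strain, any allele or agent, the source of inflammation and the sorting gate are named in neither the labels nor the files used here. Both libraries form 1 group, so no condition could be compared, and any difference between them is a difference between libraries labelled as coming from 1 biosample.

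Replication starts at origins, where the origin recognition complex (ORC), Cdc6 and Cdt1 load the MCM helicase in G1. The kinases CDC7-DBF4 and cyclin E-CDK then switch the loaded helicase on by adding Cdc45 and the GINS complex, after which primase and the DNA polymerases follow the fork on a sliding clamp made of Pcna. Many of these genes are transcribed in late G1 and S phase under E2F transcription factors, whereas mitosis genes are switched on later, in G2 and M, through CCAAT and CHR elements. Naive T cells rest in G0 with low amounts of several of these proteins, and stimulated T cells induce them before they divide.

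Promoter sequence is printed here for 4 members that hold an E2F word and, for contrast, 2 mitosis genes that hold CCAAT and CHR words. RefSeq promoter windows (GRCm38.p6, 250 bases before to 50 after the annotated start) were found for 47 of the 57 members, in 56 windows. The words searched, on both strands, were TTTCCCGC, TTTCGCGC, TTTGCCGC and TTTGGCGC for E2F, CCAAT, the CHR words TTTGAA and TTCGAA, and the GC box GGGCGG. E2F words on opposite strands can overlap each other. Each stretch below runs 5′ to 3′ on the gene's strand, covers the 160 bases before the RefSeq start and overlaps no exon annotated in GENCODE M21. The Cdc6 stretch nonetheless lies inside the GENCODE M21 span of that gene, which begins at chr11:98907801. E2F words are in capitals for the helicase loader gene Cdc6 (chr11:98907991-98908150, plus strand), the helicase subunit genes Mcm5 (chr8:75109349-75109508, plus strand) and Mcm6 (chr1:128359706-128359865, minus strand), and the polymerase alpha gene Pola1 (chrX:93632156-93632315, minus strand).
Cdc6: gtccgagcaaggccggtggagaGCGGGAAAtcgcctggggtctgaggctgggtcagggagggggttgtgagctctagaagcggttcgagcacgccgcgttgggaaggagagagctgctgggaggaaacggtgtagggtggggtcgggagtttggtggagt
Mcm5: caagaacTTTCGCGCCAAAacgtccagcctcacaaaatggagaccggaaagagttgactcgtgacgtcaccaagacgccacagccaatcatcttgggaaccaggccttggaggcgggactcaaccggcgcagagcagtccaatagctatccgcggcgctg
Mcm6: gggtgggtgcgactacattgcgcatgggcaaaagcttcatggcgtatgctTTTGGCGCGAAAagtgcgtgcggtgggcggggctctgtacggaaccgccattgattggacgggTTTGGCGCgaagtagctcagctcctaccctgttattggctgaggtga
Pola1: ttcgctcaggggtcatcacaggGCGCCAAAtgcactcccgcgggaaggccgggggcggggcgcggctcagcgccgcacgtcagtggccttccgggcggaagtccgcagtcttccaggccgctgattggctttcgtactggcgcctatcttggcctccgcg

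In the 2 mitosis genes, the capitals mark CCAAT and CHR words. The CCAAT words that Mcm5, Mcm6 and Pola1 also hold are left in lower case above. Kif11 encodes a spindle motor (chr19:37376222-37376381, plus strand) and Mki67 encodes the Ki-67 protein of proliferating cells (chr7:135716380-135716539, minus strand).
Kif11: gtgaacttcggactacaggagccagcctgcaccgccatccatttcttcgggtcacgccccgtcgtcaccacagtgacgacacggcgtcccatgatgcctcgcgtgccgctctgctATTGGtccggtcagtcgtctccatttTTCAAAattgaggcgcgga
Mki67: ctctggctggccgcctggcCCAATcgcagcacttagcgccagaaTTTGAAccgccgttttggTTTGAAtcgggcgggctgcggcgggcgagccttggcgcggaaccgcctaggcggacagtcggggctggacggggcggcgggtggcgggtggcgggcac

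An E2F word lay in the windows of 16 of the 47 members (34.0%), against 2.61% of 27025 genes with a RefSeq window. In Mcm5, TTTCGCGC at position -153 from the start overlapped TTTGGCGC of the opposite strand at -149. Mcm6 held 3 E2F words, at -110, -106 and -47. Cdc6 and Pola1 each held 1, at -138 in both. The other members with a word were Cdt1, Clspn, Gins3, Lig1, Mcm3, Mcm7, Orc1, Orc3, Pold1, Pold3, Pole2 and Rfc3. CCAAT, with or without a CHR word, lay in 55.3% of the members and 41.1% of all genes. Among the 18 mitosis genes with a window the share was 88.9%. CCAAT and a CHR word occurred together in 10.6% of the members and 8.61% of all genes, but in 77.8% of those mitosis genes. By contrast, 1 of those 18 mitosis genes (5.56%) held an E2F word. Member windows also had a GC box more often than all genes (76.6% against 38.2%) and a higher median GC content (62.3% against 52.7%). These are matches of letters in fixed windows, and binding was not measured.

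Expected counts, the authors' estimates that share ambiguous reads among genes, summed to 26593267 in library 1 and 22036331 in library 2. The cells carried the markers of their label: all 7 regulatory T cell markers and all 5 T cell markers were under 1.5-fold apart between the libraries, with summed levels of 1559 and 1420 TPM (a level corrected for transcript length and scaled to the same sum in each library) and of 4798 and 4754 TPM. RNA of other cell types differed between the libraries. Of 11 erythroid markers, 10 were higher in library 1 (summed TPM 8586 and 135). Of 8 macrophage markers, 7 were higher in library 2 and 1 in library 1 (summed TPM 33.0 and 77.2), with C1qc at 0 counts and 223. The 6 B cell markers summed to 602 and 548 TPM with 1 of 5 tested higher in library 1, and neither of 2 tested plasma cell markers was higher in library 1 while 1 was in library 2. None of 3 tested germinal centre B cell markers passed 1.5-fold. Both CD8 markers were higher in library 1 (27.0 and 13.5 TPM), 1 of 3 tested NK cell markers was higher in library 2, and of 3 tested dendritic cell markers 1 was higher in each library. Differences of this size are unusual between technical replicates and go against that label, so each ratio below compares the libraries as labelled, whose shared origin was not tested. The part of these cells in the results below was not tested either.

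Nearly the whole replication machinery was transcribed. Of the 57 members, 56 reached 1 TPM in each library and were counted as detected, against 49.1% of 22028 protein-coding genes. The exception by gene TPM was Pole, the catalytic subunit of polymerase epsilon, at 0.79 TPM in library 1 and 2.58 in library 2. By coding transcripts alone, more members were below 1 TPM. These were Pole (0.65), Mcm10 (0.73), Gins1 (0.15) and Gins2 (assigned 0) in library 1, and Orc1 (0.37) in library 2. The median member stood at 31.8 TPM in library 1 and 24.1 in library 2. Averaged over both libraries, the member median was 28.4 TPM against 21.3 TPM for detected genes, and 34 members lay above that level. Together the members took 0.272% of the counts of library 1 (95% Wilson interval 0.270 to 0.274, counting error only) and 0.246% of library 2 (0.244 to 0.248). In bulk RNA, fewer cells in S phase and less RNA per cell cannot be told apart. Across the 57 members the levels of the 2 libraries correlated with Pearson's r = 0.941 on log2(TPM + 1) and Spearman's rho = 0.956, a description over genes that share a library and its depth.

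**Figure D1:**
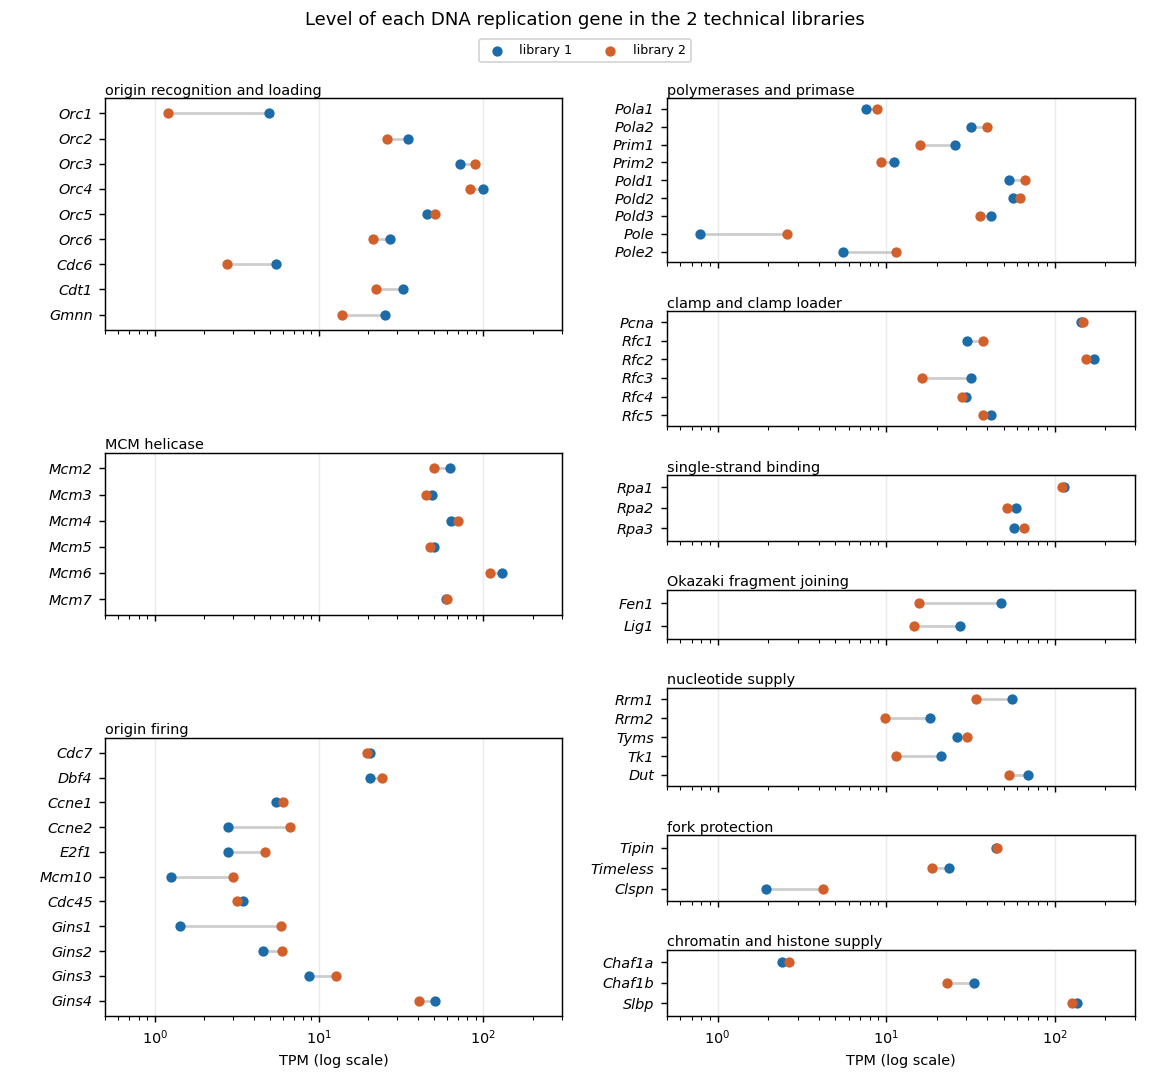
TPM of each of the 57 members in library 1 (blue) and library 2 (orange) on a log axis, grouped by role, with a grey line joining the 2 values of a gene. The MCM helicase genes lie close together between 45.1 and 130 TPM, while Orc1, Pole, Gins1 and Clspn sit near the low end with their libraries far apart.

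Between the libraries, each member's expected count was divided by the library total after adding 0.5 counts, and the ratio was taken as library 2 over library 1, with an exact 95% interval that covers counting error only. A gene was tested for size with at least 100 counts over both libraries and counted as different at 1.5-fold or more. This is a fold rule with no p-value, since 1 biosample gives no replicate spread. Of 56 members tested, 10 were higher in library 1 (11% of 12603 genes were), 7 were higher in library 2 (15.3% of all genes), and 39 were under 1.5-fold. As shares of the members, these are 17.9% for library 1, above the 11% of all genes, and 12.5% for library 2, near or below the 15.3%. At a difference of 25% or more, 17 members were higher in library 1 (20.3% of all genes) and 8 in library 2 (25.1%). At 2-fold, 4 were higher in library 1 (5.03% of all genes) and 2 in library 2 (9.03%). The median log2 ratio of the members was -0.09 against 0.01 for all genes, a difference of -0.10. The median size of the log2 ratio, without its sign, was 0.25 for members and 0.28 for all genes. Scaling by DESeq2 size factors shifted the median of all genes to -0.13. Under that scaling 12 members were higher in library 1 (15.1% of all genes) and 5 in library 2 (12.4%).

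The directions differed with abundance. Among the 12 members with 100 to under 500 counts, 2 were higher in library 1 (background 23%) and 6 in library 2 (background 37.9%), and their median log2 ratio was 0.48. Among the 44 members with at least 500 counts, 8 were higher in library 1 (background 6.37%) and 1 in library 2 (background 6.47%), with a median of -0.14. The members higher in library 2 were mostly thinly counted, as were 1339 of the 1926 genes higher in library 2 overall. An E2F word lay in the windows of 4 of 9 members higher in library 1, 3 of 5 higher in library 2, and 9 of 33 under 1.5-fold.

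**Figure D2:**
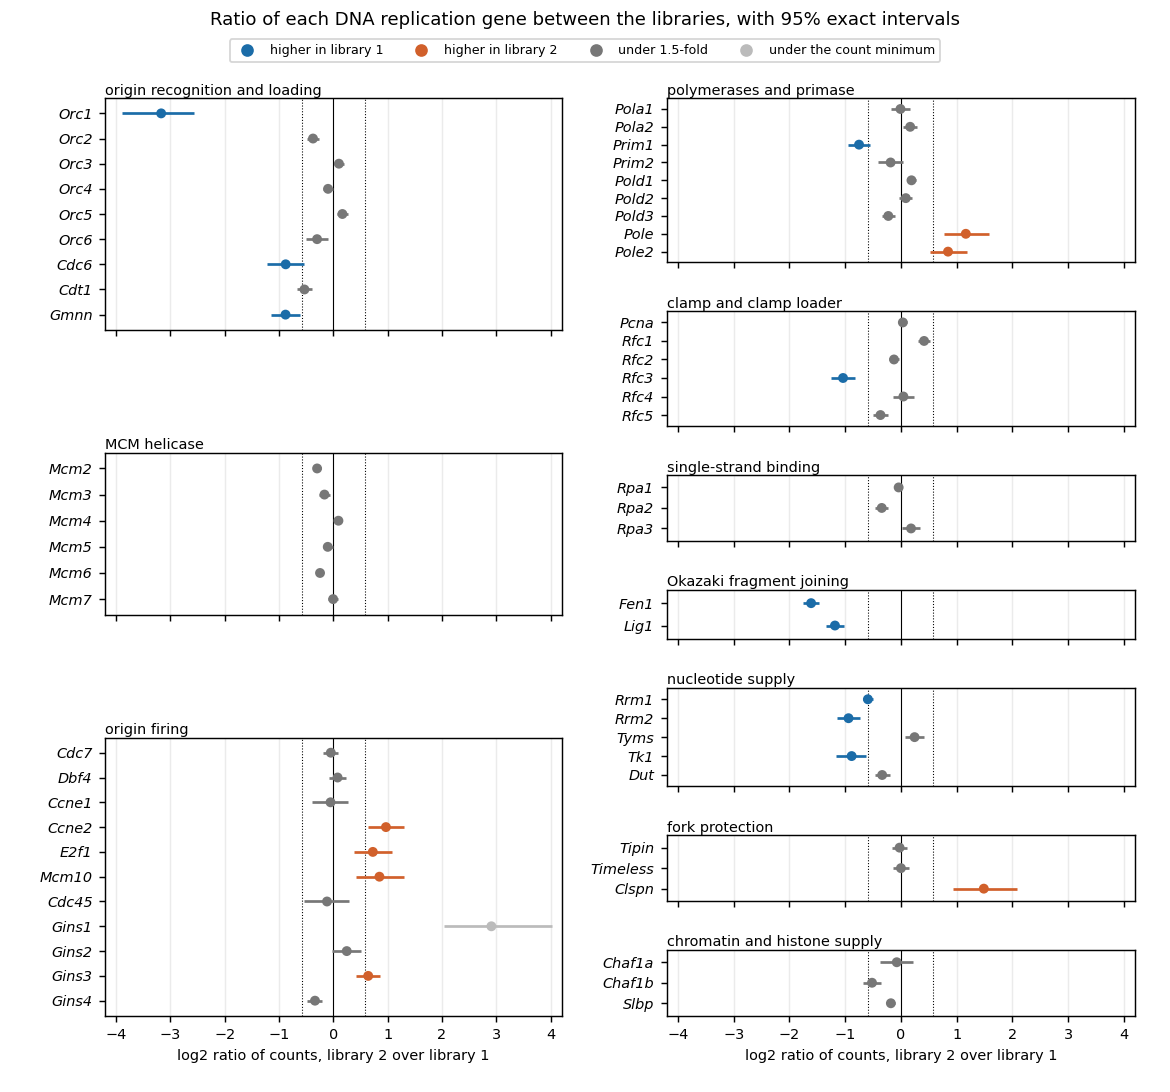
log2 ratio of library 2 over library 1 for each member, from expected counts divided by library totals, with exact 95% intervals for counting error; dotted lines mark 1.5-fold. Orc1 lies farthest to the left at -3.17, both Okazaki fragment genes lie left of the dotted line, and all 6 MCM genes lie between the lines.

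Origin recognition and helicase loading held both abundant and scarce genes. By gene TPM, the origin recognition subunits Orc2 to Orc6 ranged from 21.2 to 99.1 over both libraries. Orc4 (99.1 and 83.0 TPM in library 1 and 2) and Orc3 (72.0 and 88.8 TPM) led them. Orc1, the large ATPase subunit whose amount changes through the cell cycle (chr4:108579423-108614833), was the exception at 4.93 and 1.20 TPM. Its counts were 243 and 21.9, a 9.01-fold higher level in library 1 (95% interval 5.91 to 14.9; log2 ratio -3.17). That is the largest ratio among the 56 tested members, and Orc4 exceeded Orc1 20.1-fold in TPM within library 1. In library 2 the spread was 74.0-fold, from Orc3 down to Orc1. Both spreads are of gene TPM. By coding transcripts alone, Orc4 had 17.65 and 17.75 TPM, below Orc2, Orc3, Orc5 and Orc6 in each library. Orc1 had 4.93 and 0.37 coding TPM. Orc1 shares exon bases with Gm12743 on the opposite strand, which had 7.37 and 57.1 counts, the reverse of Orc1. How reads were split there was not tested. The authors' effective length for Orc1 was 2965 in library 1 and 1343 in library 2, so its TPM and count ratios differ.

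Cdc6, the ATPase that loads the helicase with ORC, was scarce at 5.45 and 2.75 TPM and 1.84-fold higher in library 1 (1.45 to 2.34). Gmnn, which encodes geminin, the inhibitor of Cdt1 that blocks a repeat loading in S phase and G2, stood at 25.3 and 13.8 TPM and was also 1.84-fold higher in library 1 (1.54 to 2.22). Cdt1 itself, the helicase loading factor held by geminin, was at 32.5 and 22.4 TPM. Its ratio of 1.45-fold (1.31 to 1.60) stayed just under the 1.5-fold rule, and passed it under DESeq2 size factors (log2 ratio -0.68). Of the 9 members of this role, 3 were higher in library 1 (11% of all genes) and none in library 2 (15.3% of all genes). Orc6, the smallest subunit, had 27.1 and 21.2 TPM, Orc5 had 45.2 and 50.7, and Orc2 had 34.9 and 26.1, all under 1.5-fold.

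The 6 subunits of the MCM2-7 helicase ring were even and steady. Mcm6 was highest (130 and 110 TPM) and Mcm3 lowest (48.9 and 45.1 TPM), a span of 2.65-fold in library 1 and 2.44-fold in library 2. Mcm4 had 64.0 and 70.3 TPM, Mcm2 62.5 and 50.1, Mcm7 59.1 and 60.6, and Mcm5 49.8 and 47.1. All 6 were under 1.5-fold apart, and their median log2 ratio was -0.14. Most genes with at least 500 counts were under 1.5-fold too, as 6.37% were higher in library 1 and 6.47% in library 2. Mcm7 had the ratio nearest to 1, 1.00-fold (0.945 to 1.07), and Mcm2 the farthest, 1.23-fold higher in library 1 (1.17 to 1.30). Mcm7 shares exon bases with Cops6 and Ap4m1 on the opposite strand, so part of its reads may belong to them if counting ignored strand.

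Factors that fire loaded origins were mostly scarce. The kinase Cdc7 (20.3 and 19.5 TPM) and its activator Dbf4 (20.4 and 24.1 TPM) were level with each other, within 1.00-fold in library 1 and 1.23-fold in library 2. Cyclin E1 (Ccne1), which activates CDK2 at the G1 to S transition, had 5.48 and 6.02 TPM. Cyclin E2 (Ccne2) had 2.78 and 6.68 TPM, 1.95-fold higher in library 2 by counts (1.55 to 2.47). E2f1, the transcription factor that switches on S phase genes, stood at 2.78 and 4.67 TPM and was 1.65-fold higher in library 2 (1.30 to 2.10). Mcm10, which is needed to open the activated helicase, had 75 and 112 counts and was 1.80-fold higher in library 2 (1.33 to 2.45). Cdc45, the helicase activator, had 3.47 and 3.17 TPM and a log2 ratio of -0.12 (-0.54 to 0.29).

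The 4 subunits of GINS, a complex that joins MCM and Cdc45 in the active helicase, were far from equal. Gins4 had 51.0 and 40.8 TPM, Gins3 8.70 and 12.8, Gins2 4.56 and 5.95, and Gins1 1.42 and 5.84. Gins4 thus exceeded Gins1 35.9-fold in library 1 and 6.99-fold in library 2. Gins3 was 1.56-fold higher in library 2 (1.34 to 1.82), but its log2 ratio fell under the rule with DESeq2 size factors (0.49) and with TPM + 1 (0.50), and in the small gene table, a separate deposited count, it turned to -0.034. Gins1 had 11.0 and 71.1 counts, below the minimum of 100 counts, and its ratio of 7.50-fold higher in library 2 had an interval of 4.10 to 16.3. No origin firing gene was higher in library 1, and 4 of the 10 tested were higher in library 2, against 15.3% of all genes and 37.9% of those with 100 to under 500 counts. Of those 4, E2f1, Mcm10 and Gins3 were under 1.5-fold in the small table.

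The member subunits of polymerase delta, the main lagging-strand enzyme, had similar levels, and those of polymerase epsilon, the leading-strand enzyme, were scarce. Pold1, the catalytic subunit of delta, had 53.5 and 66.8 TPM, Pold2 had 56.7 and 62.0, and Pold3 had 42.2 and 36.0, a span of 1.34-fold and 1.86-fold in the 2 libraries. The small delta subunit Pold4, which is not among the 57, stood above them at 93.2 and 89.2 TPM. Pole had 81.0 and 151 counts, 2.24-fold higher in library 2 (1.71 to 2.98), and its partner Pole2, at 5.55 and 11.5 TPM, was 1.80-fold higher in library 2 (1.44 to 2.27). The small epsilon subunits, also outside the 57, were not scarce, with Pole4 at 213 and 190 TPM and Pole3 at 18.9 and 20.8. Pole2 shares exon bases on the same strand with the protein-coding gene Gm49384, so the split of reads between them is uncertain. In the polymerase alpha-primase complex, which starts each new strand, Pola2 was highest (32.0 and 39.7 TPM) and the catalytic subunit Pola1 lowest (7.62 and 8.87 TPM). The small primase subunit Prim1 had 25.7 and 15.9 TPM and was 1.68-fold higher in library 1 (1.48 to 1.93), while the large subunit Prim2 had 11.1 and 9.37 TPM.

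Pcna, the sliding clamp, was among the most abundant members at 144 and 147 TPM, a ratio of 1.02-fold (0.972 to 1.08). The clamp loader RFC spanned 5.72-fold in library 1 and 9.38-fold in library 2. Rfc2 had the highest gene level of all 57 members (171 and 154 TPM), though nearly all of it came from transcripts without the full reading frame, as described below. Rfc5 had 41.7 and 37.5 TPM, Rfc1, the large loader subunit, 30.3 and 37.8, and Rfc4 29.9 and 28.1. Rfc3 was the only loader subunit past 1.5-fold, at 31.8 and 16.4 TPM, or 2.05-fold higher in library 1 (1.77 to 2.39). The single-strand binding proteins Rpa1 (114 and 110 TPM), Rpa2 (59.0 and 52.2) and Rpa3 (57.4 and 66.0) were all under 1.5-fold, as were 9286 of 12603 genes.

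Both genes that finish Okazaki fragments were higher in library 1. Fen1, the nuclease that trims the flap between fragments (chr19:10199132-10204169), had 48.4 and 15.7 TPM, 3.06-fold by counts (2.76 to 3.40). Lig1, the ligase that seals the nick (chr7:13277283-13311433), had 27.5 and 14.6 TPM, 2.27-fold by counts (2.03 to 2.55). Fen1 shares exon bases with Tmem258 and the antisense gene Gm10143 on the opposite strand. Gm10143 had 13.6 counts in library 1 and 169 in library 2, the reverse of Fen1, and how reads were split there was not tested.

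Nucleotide supply was the other role with most of its genes higher in library 1, 3 of 5, against 11% of all genes. Rrm1, the large subunit of ribonucleotide reductase, which makes deoxynucleotides, had 55.9 and 34.3 TPM, 1.51-fold (1.41 to 1.61), and was under 1.5-fold in the small table and in coding transcripts, which leaves 2 of those 3. Rrm2, the small subunit that is made in S phase, had 18.2 and 9.81 TPM, 1.92-fold (1.67 to 2.22). Tk1, the S phase thymidine kinase, had 21.1 and 11.4 TPM, 1.85-fold (1.55 to 2.23). Dut, which breaks down dUTP, had 69.2 and 53.7 TPM, and thymidylate synthase, Tyms, had 26.4 and 30.4 TPM. By gene counts, Tyms was the only gene of this role with a ratio above 1 toward library 2, 1.19-fold (1.05 to 1.34). That direction did not hold elsewhere, as its log2 ratio was -0.046 in the small table and -1.16 in coding transcripts.

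At the fork, Tipin (45.0 and 45.6 TPM) and its partner Timeless (23.5 and 18.8 TPM) keep the helicase and polymerases together. Their counts per library total were nearly equal between the libraries, 1.02-fold and 1.00-fold. Timeless differed in TPM, as the authors' effective length for it was 2202 in library 1 and 2790 in library 2. Clspn, the adaptor that passes the checkpoint signal to CHK1, was scarce at 1.95 and 4.25 TPM, and its 38.0 and 89.0 counts were 2.81-fold higher in library 2 (1.91 to 4.25). The subunits of CAF-1, which places histones on new DNA, were unequal, with Chaf1b at 33.3 and 23.1 TPM and Chaf1a at 2.41 and 2.65. Slbp, which binds the stem-loop of histone mRNA, was abundant at 136 and 126 TPM. No chromatin or histone supply gene passed 1.5-fold, and 9286 of 12603 genes were under it as well. Chaf1b did pass it toward library 1 under DESeq2 size factors (log2 ratio -0.66).

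Other genes of the pathway were read from separate lists. Among 40 other replication genes, 38 had enough counts. Library 1 was higher for 4 of them (10.5%, against 11% of all genes) and library 2 for 7 (18.4%, against 15.3%). Both shares are near those of all genes, and the list's median log2 ratio was -0.05. Those higher in library 1 included the Pcna-associated factor Pclaf (-1.78), the origin firing factor Mtbp (-1.18) and Uhrf1 (-0.70). Higher in library 2 were, among others, the alternative clamp loader gene Chtf18 (1.94), Ticrr (1.08), Recql4 (0.89) and Wdhd1 (0.83). The most abundant were Samhd1, which degrades deoxynucleotides (304 and 316 TPM), the histone chaperones Rbbp4 (288 and 236) and Ssrp1 (180 and 159), and Pole4. In this list, 11 of 34 genes with a RefSeq window (32.4%) held an E2F word.

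Among 15 regulators of S phase entry, 4 were higher in library 1 (11% of all genes) and 1 in library 2 (15.3% of all genes). Their median log2 ratio was -0.22. The repressors E2f8 (-2.14) and E2f7 (-2.01), cyclin A2, Ccna2 (-1.84), and E2f2 (-0.69) were those higher in library 1, and the CDK inhibitor Cdkn1a (1.28) was higher in library 2. E2f4, a repressor partner of the retinoblastoma family, was the most abundant at 149 and 138 TPM.

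Mitosis genes moved apart from the replication genes. All 21 had enough counts. Of these, 19 stood higher in library 1 (11% of all genes) and none in the other (15.3% of all genes). Their median log2 ratio was -2.18, and their TPM gave summed levels of 263 and 87.0 TPM. The exceptions, both under 1.5-fold, were Top2a (0.25) and Cenpa (-0.25), the centromere histone. Cyclin B1, Ccnb1, had 26.3 and 2.00 TPM (log2 ratio -4.65) and Ccnb2 had 24.4 and 0.70 TPM (-5.10). The ratios of Nusap1 (305 and 2 counts; -6.66, interval -10.0 to -5.12) and Plk1 (231 and 2.14 counts; -6.19, interval -9.63 to -4.71) rest on few counts in library 2. The members' median of -0.09 was far from that of the mitosis genes, and the difference between the lists was not tested. Erythroid markers were higher in library 1 as well, at the summed levels given above, and their part in these ratios was not tested.

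**Figure D3:**
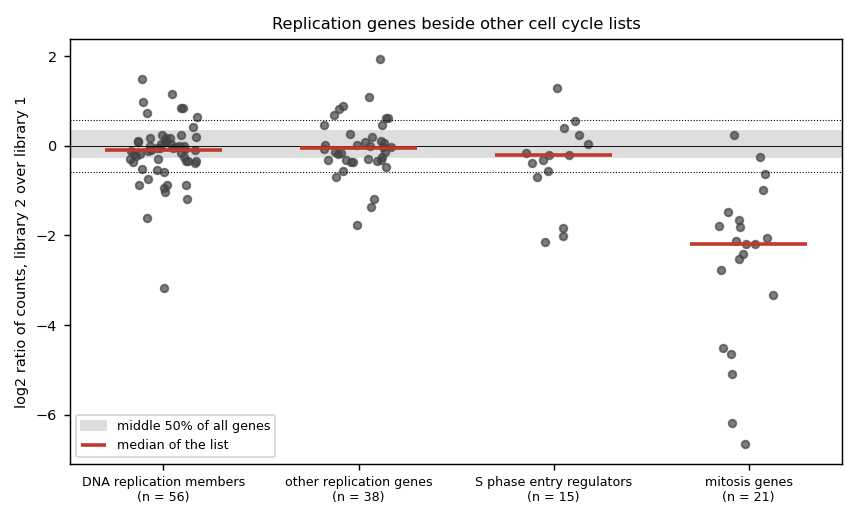
log2 ratio of library 2 over library 1 for each tested gene (points) of the 57 members, the other replication genes, the S phase entry regulators and the mitosis genes, with list medians (red) and the middle 50% of all genes (grey band). Replication genes straddle 0 with a median of -0.09, while 19 of 21 mitosis genes lie below the lower 1.5-fold line.

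Transcript tables showed how much of each gene's level came from protein-coding forms. The 57 members have 352 annotated transcripts, and the transcript with the highest TPM was the same in both libraries for 49 of them. That number was 47 of the 51 members with at least 100 counts in each library. In 45 members a coding transcript led in both. The median coding share of a member's TPM was 82.3% in library 1 and 78.6% in library 2, against 87.8% and 85% for tested protein-coding genes. The median share of retained-intron transcripts, which keep an intron and encode no full protein, was 6.34% and 11.5%, against 1.29% and 3.08%. The means lay closer together, at 13.88% and 18.04% for members against 11.78% and 13.59% for tested protein-coding genes. Mean coding shares were 77.03% and 72.85% for members, against 77.2% and 75.39%. Retained-intron transcripts are annotated for 43 of the 57 members, and a gene without one cannot have such a share. Retained-intron shares were at least 10 points higher in library 2 for 10 members (10.2% of tested protein-coding genes) and in library 1 for 1 member (4.97%). Over all tested protein-coding genes, too, the share was more often higher in library 2. Assignment among transcripts that share exons is an estimate from short reads.

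Rfc2 combined the highest gene level with a very small coding share of TPM. Its coding transcript took 1.44% of the gene's TPM in library 1 and 2.18% in library 2, or 2.46 and 3.35 TPM. By counts its part was larger, at 202 of 2377 and 225 of 1808, since TPM corrects for transcript length. The shares of TPM given for other genes differ from shares of counts in the same way. The retained-intron transcript Rfc2-204 led with 42.6% and 46.2%, and transcripts marked for nonsense-mediated decay took 19.9% and 12.8%. By coding TPM the leading members were instead Mcm6 (129 and 110), Slbp (123 and 105), Pcna (104 and 110) and Rpa1 (90.5 and 89.7).

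For Tyms, decay transcripts took 79.6% and 62.4% of the TPM. Its coding counts were 161 and 59.2, a log2 ratio of -1.16 where the whole gene had 0.25. Prim2 was similar, with a coding share of 88.4% and 49.1% and a coding log2 ratio of -1.11 against -0.18 for the gene. In Pole the retained-intron share was 17.7% and 53.7%, and its coding counts were 76.9 and 80.7 (log2 ratio 0.34 against 1.17). Gins2 was assigned 0 coding counts in library 1 and 54.8 in library 2, with retained-intron forms at 86.0% and 82.4%. That 0 is an estimate and does not bound the coding reads, as the gene's 240 counts had a posterior SD of 19.5. By TPM, Orc1 was all coding in library 1 and 30.6% coding in library 2. It had few counts there, and 14.8 of its 21.9 counts were coding. Orc4 (17.8% and 21.4% coding) and Lig1 (21.8% and 23.6%) were led by transcripts annotated without a reading frame, Orc4-212 and Lig1-209.

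**Figure D4:**
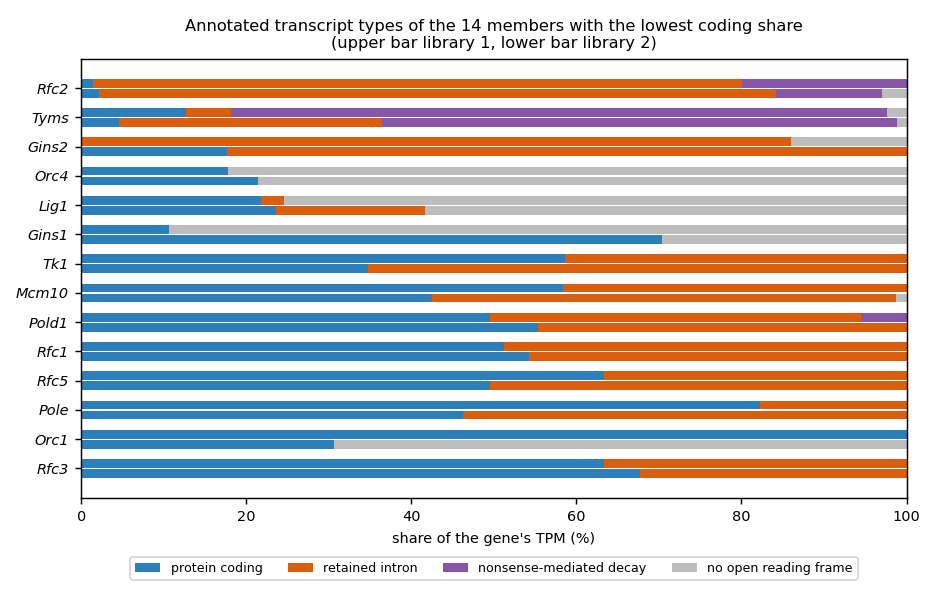
Share of each gene's TPM by annotated transcript type for the 14 members with the lowest coding share, library 1 in the upper and library 2 in the lower bar of each pair. Rfc2 has the smallest coding part in library 2 (2.18%), Gins2 has none in library 1, and the retained-intron part of Tk1 is 41.4% in library 1 and 65.3% in library 2.

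Counting coding transcripts alone left 54 members with at least 100 counts. Of these, 11 were higher in library 1 (12.2% of 10569 genes) and 5 in library 2 (12.6%), and the median log2 ratio was -0.18 against -0.01 for all genes. Of the 17 members past 1.5-fold by gene counts, 15 remained whatever their coding count, and Pole and Rrm1 did not. Tyms and Prim2 passed 1.5-fold toward library 1 in the coding counts and not in the gene counts. This comparison was chosen after the data had been seen.

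The small gene table is a separate deposited count of the same libraries, and it gave the members 0.494% of its counts in library 1 (0.489 to 0.499) and 0.440% in library 2 (0.436 to 0.445). The median member had a small-table count of 62.3% and 63.8% of its expected count. Summed over the members, the small table held 39056 and 30674 counts against 72322 and 54169 expected counts. Summed over all genes it shares, the small table held 31.2% and 33.3% of the expected counts, which is not a median over genes. The members' ratios in the 2 tables had Pearson's r = 0.931 over 56 genes, a description of values from the same reads, and 49 had the same sign. Of the 54 members with at least 100 counts there, 10 were higher in library 1 (9.97% of 9756 genes) and 3 in library 2 (7.73%). Of the 17 members past 1.5-fold, 13 remained whatever their count there. Rrm1 (-0.57), E2f1 (0.47) and Mcm10 (0.49) fell short, and Gins3, with 93 and 80 counts, turned to -0.034. Prim2 passed 1.5-fold toward library 1 there (-0.89), as in its coding counts, and Gins2, with 19 and 35 counts, passed toward library 2 (1.05). Orc1 (-2.80), Fen1 (-1.11), Lig1 (-1.23), Tk1 (-1.48), Clspn (1.98) and Pole (0.67) kept their direction. The tables differed most in size for Gins2, whose small-table count was 7.93% and 14.9% of its expected count, and for Pcna, at 14% and 15.4%. Gins2 shares exon bases with Gse1 on the opposite strand, and the posterior SD of its expected count was 8.14% and 6.64% of the count, the highest among the members in each library.

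**Figure D5:**
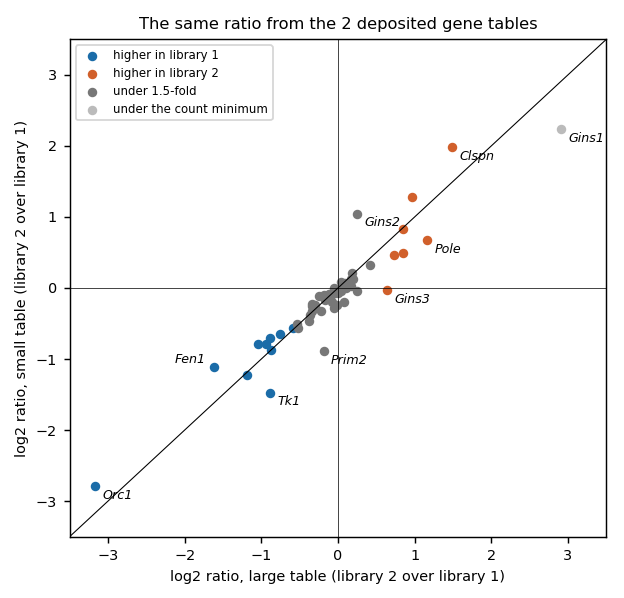
log2 ratio of library 2 over library 1 of each member in the small gene table (vertical) against the large gene table (horizontal), coloured by the large-table call, with the line of equal values. Most points follow the line from Orc1 (-3.17 and -2.80) to Clspn (1.49 and 1.98), and Prim2, Gins2 and Gins3 lie off it.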

How the data were processed

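Polyadenylated RNA was measured in 2 libraries labelled technical replicates of 1 biosample. The authors' expected counts, TPM and FPKM for genes (large table) and transcripts rest on mm10 alignments and GENCODE M21, per the deposited description. IsoPct, the percent of a gene's level in a transcript, along with effective lengths and posterior standard deviations, is deposited with them, per the file headers. A separate small table has whole counts per gene, which the authors made with GENCODE M4, as the deposited description says. The sources used here name no aligner, quantifier, duplicate removal or strand setting, so overlapping genes are uncertain.

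Rows outside GENCODE genes (0.201% and 0.235% of counts) were left out of totals, as were small-table rows without a match (22195 of 22457 matched). Ratios used unrounded expected counts over library totals with 0.5 added. Their exact Clopper-Pearson intervals used rounded counts. Genes needed 100 counts over both libraries and 1.5-fold to count as different. Nothing states separate cultures or animals, so differences measure only these libraries, and PCR copies limit intervals to counting error. An observed count of 0 allows up to 3 counts, a CPM of 0.113 and 0.136. This limit does not hold for a 0 that was assigned among transcripts of a gene. The ratio step was checked on simulated data.

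The members and lists were chosen with earlier results of these data known. All members could be named. From other lists, the 4 highest by mean TPM and up to 4 with the largest ratio in each direction past 1.5-fold and 100 counts were taken, and Top2a, the remaining mitosis gene under 1.5-fold, C1qc, Pold4, Pole3, the printed mitosis promoters (Kif11, Mki67) and genes overlapping members were named after their values were seen. A few genes of the other lists that this rule takes are not reported here. Chtf8 has 2 gene identifiers, and the more abundant was used. Scaling factors came from edgeR 4.0.16 and DESeq2 1.42.0 (R 4.3.3), and other steps used Python 3.11.15, pandas 2.3.3 and scipy 1.17.1. RefSeq gave the promoter windows (GRCm38.p6). Protein sequences were not used here. Alternatives were TMM and DESeq2 scaling, TPM and FPKM, the small table, other thresholds, and each library alone.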

Additional observations from a re-analysis of the deposited data

How the results depend on the processing

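The 10 members higher in library 1 became 17 at a threshold of a 25% difference (20.3% of all genes) and 4 at 2-fold (5.03%), and the 7 higher in library 2 became 3 in the small table, 3 with the small table under TMM scaling, and 2 at 2-fold (9.03%). The 4 other replication genes higher in library 1 became 10 at 25% (20.3% of all genes). The 7 higher in library 2 became 4 under DESeq2 size factors (12.4% of all genes) and 3 in the small table (7.73%). They became 3 there under TMM, and 2 at 2-fold (9.03%). Under DESeq2 size factors the members' median log2 ratio was -0.23, since that scaling shifts every gene alike. Gins3 turned to -0.034 in the small table and -0.038 there under TMM, and the cause was not tested. The members' median in FPKM was 17.6, a different unit. With E2F words on the gene's strand alone, 8 members held one. With each library alone, 56 to 57 members were detected and the median TPM was 24.06 to 31.81. Of the 17 members past 1.5-fold, TMM scaling and 5 added counts kept 17, TPM + 1 kept 16 (without Gins3) and DESeq2 size factors 15 (without E2f1 and Gins3). No paired analysis was possible because both libraries belong to 1 group. Exons of 21 members overlap another gene, the posterior SD exceeded 1% of the count for 8, and the effective length differed by more than 25% for 6. Members below 500 counts have wide intervals.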
